A study of Mus musculus with 6 samples.

Results

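The genes described here bring monocytes into tissue and keep them there: the chemokines Ccl2, Ccl7, Ccl8 and Ccl12, the receptors Ccr1, Ccr2 and Cx3cr1, and the growth factor Csf1 with its receptor Csf1r. Their RNA was followed in whole skin wounds from the back of mice, 8 days after injury, in which β-catenin had been raised or lowered once the wound was made. A probe was taken when the platform names 1 of these 9 genes for it and when it was detected (p under 0.01) on 2 or more of the 6 arrays. This kept 11 of the 13 probes, which cover 8 of the 9 genes, out of 17410 probes kept among 45281 on the array.

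All mice had the C57/BL6 background and 2 floxed copies of the gene for β-catenin, the protein that carries the Wnt signal to the nucleus. In the first model exon 3 was floxed and the mice were 2 months old. Wounds there were treated with adenovirus carrying Cre recombinase (called stabilized below, 1 array) or green fluorescent protein (GFP, 1 array). In the second model exons 2 to 6 were floxed and all mice had tamoxifen. The controls were 4 months old and had no Cre (2 arrays), and the knockdown mice were 5 months old and carried Cre-Esr1 (2 arrays). The labels call GFP and control wounds wild type, although these mice carry the floxed alleles. Age differed along with genotype in the second model, and age, floxed exons, virus and tamoxifen all separate one model from the other. The promoter driving each Cre, and the cells it reached, are not given in the sources used here. Samples are described as biological replicates with no animal named, so p-values measure only the spread between these samples.

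Monocytes leave the blood for injured tissue along gradients of chemokines, small secreted proteins sensed by receptors coupled to G proteins. Ccl2, Ccl7 and Ccl12 act on Ccr2, the receptor that marks the inflammatory monocyte of the mouse. In the tissue, monocytes turn into macrophages, whose survival depends on Csf1 acting through Csf1r. In healing skin these macrophages clear debris and support the growth of new tissue.

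Values are normalized probe intensities on the log2 scale, on which 1 unit is a 2-fold difference. Levels of different probes are not compared, except to pick the brightest of a gene or list, to sum lists and to rank Ccl8. The number of arrays limits the precision. Arrays detected between 15883 and 16681 probes. The GFP array was at the low end of this range and was the dimmest, with a mean intensity of 544.4 where the other arrays had 648.7 to 714.8. The second tamoxifen control resembled knockdown replicate 1 (r = 0.982 over the kept probes) slightly more than the other control (r = 0.979). All 8 keratinocyte and all 9 fibroblast genes looked for passed. So did all 10 skeletal muscle and all 7 endothelial genes, so passing does not single out skin. The 4 Ctnnb1 probes that passed differed by -0.24 to 0.18 (knockdown minus control) and by -0.82 to -0.03 (stabilized minus GFP). Their place relative to the floxed exons was not analysed here, so they do not check the labels.

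The stabilized wound had the highest signal of all 6 arrays for each of the 4 monocyte chemokines, as for 25.7% of all probes. By the brightest probe of each gene, it exceeded the GFP wound 3.04-fold for Ccl7, 2.05-fold for Ccl2, 1.78-fold for Ccl12 and 1.63-fold for Ccl8. Knockdown wounds lay below both of their controls for Ccl2 and Ccl7, at ratios of 0.651 and 0.738, while Ccl8 stood at a ratio of 1.02. Both knockdown arrays were below both controls for 20.1% of all probes. None of the 11 probes passed the test in the knockdown. The adenovirus arrays, 1 against 1, allow no test.

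**Figure D1:**
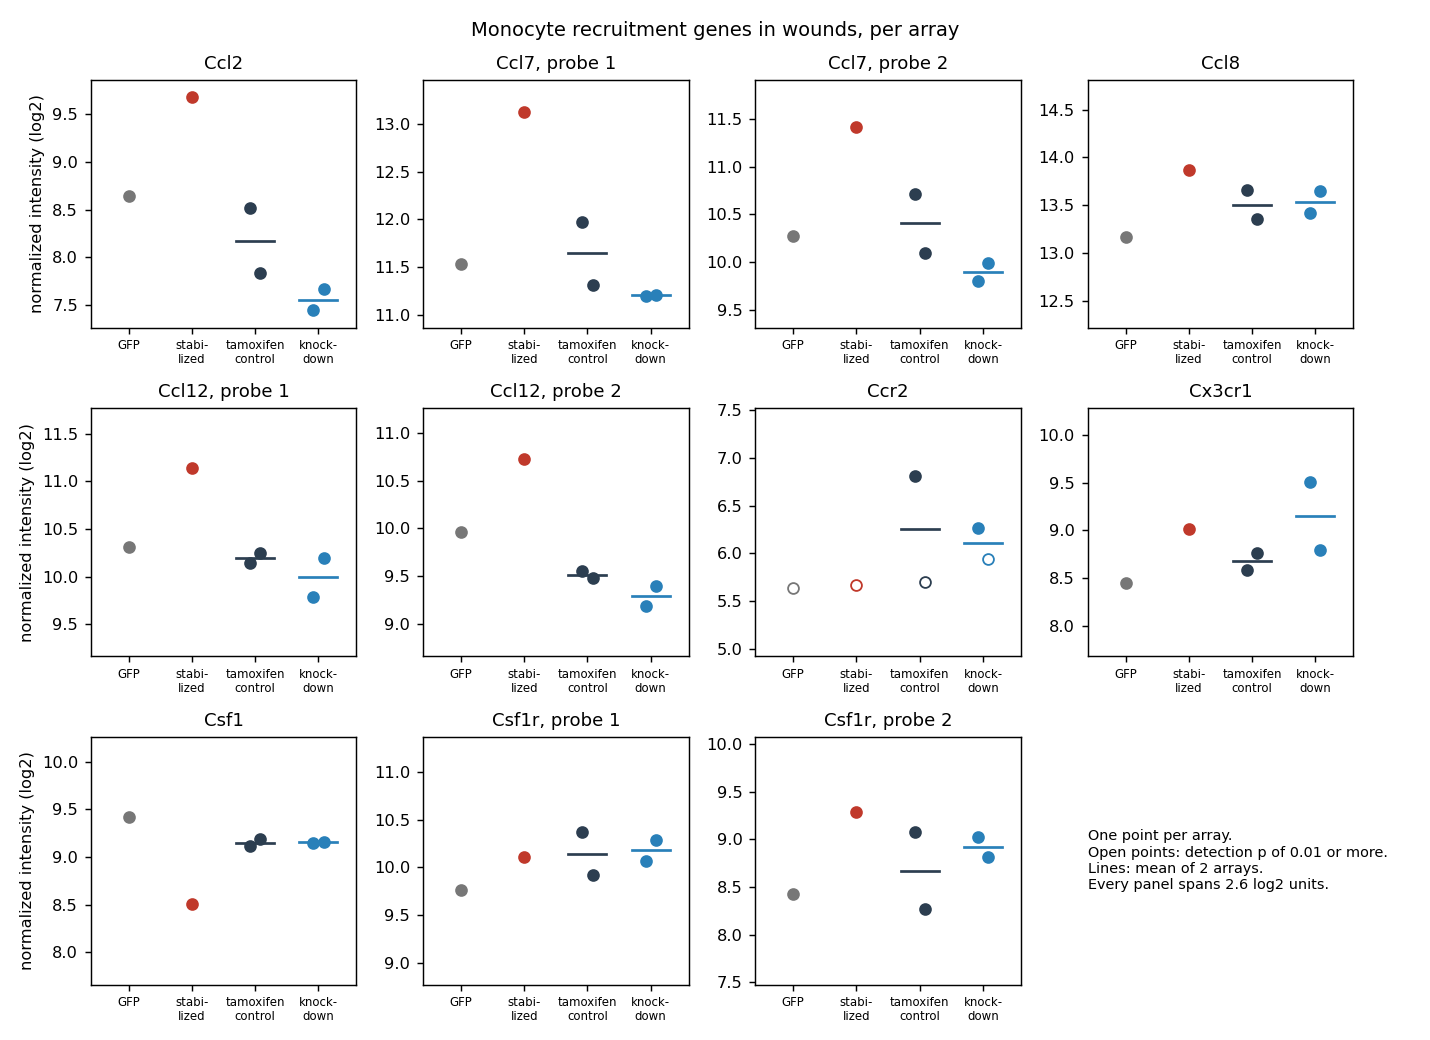
Normalized intensity (log2, vertical axis) of the 11 probes by group, one point per array, with a line at the mean of the 2 arrays of a tamoxifen group. Open points were not detected at p under 0.01. The stabilized wound is the highest point for Ccl2, Ccl7, Ccl8 and Ccl12 and the lowest for Csf1.

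Ccl2, the main attractant of inflammatory monocytes, read 8.65 with GFP and 9.68 with stabilized β-catenin. The tamoxifen controls gave 8.52 and 7.83, and the knockdown wounds 7.44 and 7.67. The stabilized array thus lay 1.04 above the next highest, and the knockdown arrays were the lowest of the 6. Groups were ordered stabilized, GFP, control, knockdown, and neighbours in this order did not overlap. The 2 controls were nonetheless further from each other than the lower control was from the knockdown. Knockdown minus control was -0.62 ± 0.26 (SE, n = 2 against 2; 95% interval -1.28 to 0.04; limma, adjusted p = 0.502).

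Ccl7, a ligand of Ccr2 and of further chemokine receptors, had 2 probes, and both ordered the groups alike. The brighter probe read 11.53 with GFP and 13.13 with stabilized β-catenin. Its controls gave 11.97 and 11.32, its knockdown wounds 11.20 and 11.21. On both probes the GFP array fell between the 2 controls, and the knockdown arrays were the lowest. The second probe read 10.27 and 11.42 on the adenovirus arrays, with controls at 10.72 and 10.09 and knockdown wounds at 9.80 and 9.99. The stabilized array led the next highest by 1.16 and 0.70. Knockdown minus control was -0.44 ± 0.24 and -0.51 ± 0.24 (SE; limma, adjusted p = 0.596 and 0.55). The probes differed in the size of the adenovirus difference, 3.04-fold and 2.22-fold.

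Ccl12, a mouse chemokine that also acts on Ccr2, ordered the groups as Ccl2 did. Its brighter probe read 10.31 with GFP and 11.14 with stabilized β-catenin, 10.14 and 10.25 in controls, 9.79 and 10.19 in knockdown wounds. The second probe read 9.95 and 10.73, then 9.55 and 9.48, then 9.19 and 9.39. The stabilized array led both by 0.83 and 0.77, whereas knockdown and control overlapped on the brighter probe and not on the second. Knockdown minus control was -0.21 ± 0.19 and -0.22 ± 0.15 (SE; limma, adjusted p = 0.748 and 0.666). The 95% intervals, -0.68 to 0.27 and -0.60 to 0.16, hold both 0 and the differences measured for Ccl7.

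Ccl8, known in the mouse as an agonist of the T cell receptor Ccr8, separated the adenovirus arrays but not the tamoxifen groups. It read 13.16 with GFP and 13.87 with stabilized β-catenin. Controls gave 13.66 and 13.35, and knockdown wounds lay between these values at 13.42 and 13.65. The groups did not differ beyond their spread (0.029 ± 0.18, SE; 95% interval -0.43 to 0.49; limma, adjusted p = 0.97). The stabilized array led the next highest by 0.21. Between 0.629% and 1.07% of probes on an array were brighter than this one. Before normalization it read 7326 with GFP and 15957 with stabilized β-catenin, where the brightest probes read 66302 and 66766. Whether differences are compressed at this level was not tested.

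The 4 chemokine genes lie side by side. In the RefSeq order of coding genes on mouse chromosome 11, Ccl2 is followed by Ccl7, Ccl11, Ccl12, Ccl8 and Ccl1. Ccl11, the eosinophil attractant between the members, was named after its values were seen. It read 11.70 with GFP and 12.79 with stabilized β-catenin (2.12-fold higher) and differed by -0.23 ± 0.26 (SE) in the knockdown. The sequences before the starts of Ccl12 and Ccl8 are shown because these adjacent genes ordered the groups differently, and that of Csf1 because it ran the other way in the adenovirus arrays. A RefSeq promoter entry was used for 6 of the 9 members. Ccl2 and Ccl7 had no entry, and Csf1r was not searched. Each sequence is the 250 bases before the gene start, 5′ to 3′ on the strand of the gene (GRCm38.p6). Capitals mark a match, on either strand, to CTTTGA or to an NF-κB pattern (GGG and TTTCC with any 2 bases between). CTTTGA is a form of the core of the TCF/LEF sites through which β-catenin acts, and other forms were not searched. TGANTCA, an AP-1 pattern, was searched as well.
Ccl12 (chr11:82101595-82101844, plus strand): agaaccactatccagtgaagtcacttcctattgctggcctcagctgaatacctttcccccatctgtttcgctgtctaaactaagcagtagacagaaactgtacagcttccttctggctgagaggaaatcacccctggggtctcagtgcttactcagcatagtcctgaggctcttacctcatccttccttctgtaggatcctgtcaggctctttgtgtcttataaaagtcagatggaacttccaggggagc
Ccl8 (chr11:82114935-82115184, plus strand): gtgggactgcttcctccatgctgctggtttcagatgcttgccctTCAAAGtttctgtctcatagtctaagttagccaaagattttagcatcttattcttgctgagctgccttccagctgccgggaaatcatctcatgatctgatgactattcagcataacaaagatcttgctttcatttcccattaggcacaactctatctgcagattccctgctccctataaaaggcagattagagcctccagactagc
Csf1 (chr3:107760470-107760719, minus strand): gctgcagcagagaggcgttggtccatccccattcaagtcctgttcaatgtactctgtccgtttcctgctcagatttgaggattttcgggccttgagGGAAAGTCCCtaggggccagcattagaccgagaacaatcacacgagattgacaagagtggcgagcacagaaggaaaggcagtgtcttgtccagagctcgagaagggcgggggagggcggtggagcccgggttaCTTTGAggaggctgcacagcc
The Ccl12 window held none of the 3 patterns, and neither did those of Ccr1, Ccr2 and Cx3cr1, which are not printed. In Ccl8 a CTTTGA match on the opposite strand began 206 bases before the gene start. In Csf1 a CTTTGA match began 21 bases and an NF-κB match, on the opposite strand, 154 bases before the start. Of 32851 windows of the same length, 13.8% held CTTTGA, 1.41% the NF-κB pattern and 6.75% the AP-1 pattern. The matches did not overlap each other, and they describe letters, not binding.

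Ccr1 and Ccr2 were at or near background. Ccr1, a receptor of Ccl3, Ccl5 and Ccl7, had 1 probe, which was detected on none of the 6 arrays (detection p from 0.466 to 0.884). Of the 2 probes for Ccr2, that of the RefSeq transcript was detected on none, with a detection p from 0.37 to 0.698. The second probe, annotated to another sequence, just met the rule. It had a detection p of 0.00107 in the first control and 0.00321 in the first knockdown wound, and of 0.0107 to 0.0385 elsewhere. It read 5.64 and 5.67 on the adenovirus arrays, neither well above background, so no fold is given. Controls gave 6.81 and 5.70, and knockdown wounds, at 6.27 and 5.94, lay between them. Knockdown minus control was -0.15 ± 0.38 (SE; limma, adjusted p = 0.923), with an interval of the ratio from 0.461 to 1.77.

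Cx3cr1, the fractalkine receptor of patrolling monocytes and tissue macrophages, was highest in a knockdown wound. It read 8.45 with GFP and 9.01 with stabilized β-catenin (1.47-fold higher). Controls gave 8.59 and 8.77, knockdown wounds 9.51 and 8.80. Both knockdown arrays exceeded both controls, but the lower of them by far less than the distance between the 2 knockdown arrays. Knockdown minus control was 0.48 ± 0.26 (SE; 95% interval -0.20 to 1.15; limma, adjusted p = 0.599). The ligand of this receptor, Cx3cl1, which was chosen after its values were seen, read 7.36 with GFP and 6.84 with stabilized β-catenin and differed by 0.14 ± 0.16 (SE) in the knockdown.

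Csf1, the growth factor of monocytes and macrophages, was the 1 member lower in the stabilized than in the GFP wound. It read 9.41 with GFP and 8.51 with stabilized β-catenin, 1.87-fold lower, and the 4 tamoxifen arrays stayed within 9.11 to 9.19. The stabilized array was the lowest of the 6 and the GFP array the highest. Knockdown minus control was 0.0042 ± 0.14 (SE; limma, adjusted p = 0.996), with an interval of the ratio from 0.788 to 1.28.

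Csf1r, the receptor tyrosine kinase of macrophages, had 2 probes that ordered the groups differently. The brighter read 9.77 with GFP and 10.11 with stabilized β-catenin, 10.38 and 9.92 in controls, 10.07 and 10.29 in knockdown wounds. The second read 8.43 and 9.29, then 9.08 and 8.27, then 9.02 and 8.81. The stabilized array was highest on the second probe only, and exceeded GFP 1.27-fold and 1.81-fold. Knockdown and control overlapped on both probes (0.035 ± 0.21 and 0.25 ± 0.29, SE; limma, adjusted p = 0.968 and 0.806).

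**Figure D2:**
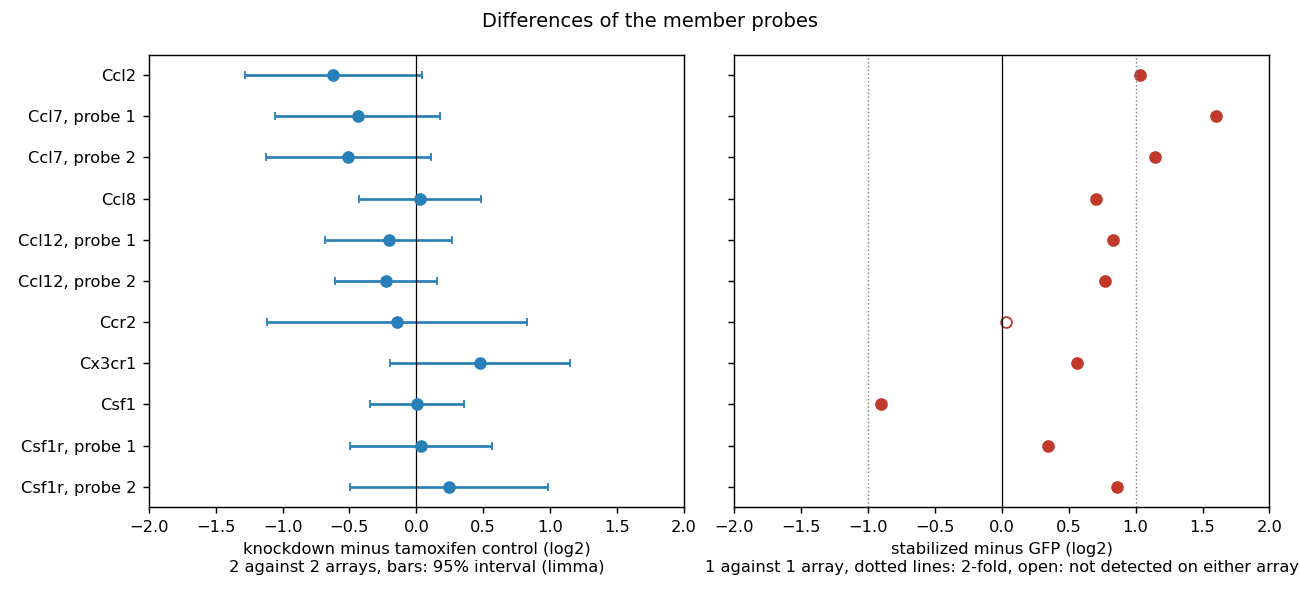
Differences (log2, horizontal axes) of the 11 probes, on the left between knockdown and tamoxifen control with limma's 95% interval, and on the right between the stabilized and the GFP array, with dotted lines at 2-fold and an open point where neither array detected the probe. All intervals on the left include 0, and on the right Ccl2 and both Ccl7 probes lie beyond 2-fold.

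Of the 11 member probes, 10 were higher in the stabilized than in the GFP wound, as were 55.1% of all probes. The count of 10 includes the Ccr2 probe, detected on neither array. At least 2-fold apart were 3 of 11 (Ccl2 and both Ccl7 probes), against 8.43% of all probes. All 3 were higher, against 3.8% of all probes, and 0 were 2-fold lower, against 4.64%. Ccl2 was close to this limit and fell below it without background correction (0.87) and with an offset of 50 (0.98). For 7 of 11 probes (6 of chemokines and 1 of Csf1r) the stabilized array was the highest of the 6, against 25.7% of all probes. The median over the members was 0.77, and over all probes 0.05.

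The adenovirus counts depended on how arrays were scaled. With arrays scaled to a common median in place of quantile normalization, the median of all probes moved to 0.57 and 8 of 11 member probes were at least 2-fold apart. Of all probes that far apart, 85.2% were then higher, against 45.0% after quantile normalization. Relative to the shift of all probes, 3 of 11 member probes were beyond 2-fold again, against 7.77% of all probes. On that footing Ccl2 stood at 1.08, the second Ccl7 probe at 1.16 and Csf1 at -0.87, while without it Csf1 stood at -0.30.

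In the knockdown, 0 of 11 member probes and 0% of all probes had an adjusted p under 0.05 (limma). Unadjusted p-values under 0.05 were found for 0 members, against 10.6% of all probes (4.88% lower). Both knockdown arrays lay below both controls for 4 of 11 probes (Ccl2, both of Ccl7 and 1 of Ccl12), against 20.1% of all probes. In either direction the groups were apart for 5 of 11, against 42.8%. The median over the members was -0.15.

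Single arrays decided some of these values. With 1 tamoxifen array left out, 1 group held only 1 array, so the size of the difference alone is given. Ccl2 ranged from -0.96 to -0.28 over these fits, and Ccl7 from -0.76 to -0.11 and from -0.82 to -0.19. Ccl12 ranged from -0.41 to -0.0051 and from -0.32 to -0.12. Cx3cr1 ranged from 0.12 to 0.83. The values nearest 0 for Ccl2 and Ccl7 were those without control replicate 1. An exact permutation test of 2 arrays against 2 cannot give less than p = 0.333 (two-sided).

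Both models were also joined in 1 slope per probe, on a scale from knockdown (-1) through the GFP and tamoxifen controls (0) to stabilized (1), with a term for the model. Slopes were largest for Ccl7 (0.83 ± 0.30 and 0.72 ± 0.23, SE, 6 arrays), Ccl2 (0.76 ± 0.22) and Ccl12 (0.41 ± 0.19 and 0.41 ± 0.16). Ccl8 had 0.22 ± 0.20, Csf1 -0.30 ± 0.21 and Cx3cr1 -0.13 ± 0.29. Ccr2 had 0.11 ± 0.30, and Csf1r 0.09 ± 0.18 and 0.12 ± 0.32. Unadjusted p-values were under 0.05 for 4 of 11 probes (Ccl2, both of Ccl7 and 1 of Ccl12), against 10.3% of all probes. All 4 slopes were positive, against 5.5% of all probes. After adjustment 0 members and 0% of all probes passed, and Ccl2 had an adjusted p of 0.372 (limma). Without the GFP or the stabilized array the count of 4 was 0, but these fits repeat the knockdown. The model term then fits the remaining adenovirus array exactly, and the slope is knockdown minus control with its sign turned. With 1 array left out, the slope of Ccl2 ranged from 0.60 to 0.99. Slopes of Ccl7 ranged from 0.44 to 1.12 and from 0.51 to 0.96, and those of Ccl12 from 0.21 to 0.59 and from 0.22 to 0.52. The stabilized array was highest of 6 and both knockdown arrays below both controls for 4 of 11 probes, against 6.96% of all probes.

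Across the 6 arrays Ccl2 correlated with the brighter probes of Ccl7 (r = 0.937), Ccl12 (r = 0.894) and Ccl8 (r = 0.446). Without the stabilized array these were 0.821, 0.625 and -0.246, so the relation to Ccl8 did not hold without that array. The second Ccl12 probe correlated with Ccl2 at 0.960, and at 0.885 without the stabilized array. The 6 points share their normalization, and r is a description only. Among 1677 genes compared, the most like Ccl2 were Gfpt2, an enzyme of hexosamine synthesis (r = 0.999), the surface protein Ly6c1 (0.992) and the hyaluronan synthase Has1 (0.990). In all, 53 of these genes exceeded 0.95. Has1 read 9.09 with GFP and 11.66 with stabilized β-catenin, 8.74 and 6.60 in controls, 6.52 and 6.90 in knockdown wounds. Most like the brighter Csf1r probe were the immune receptor Nfam1 (r = 0.986), Pigz (0.968) and the macrophage lectin Mgl2 (0.889). Most like the Ccr2 probe, itself detected on only 2 arrays, were Aunip (0.992), the enolase Eno2 (0.896) and Ocel1 (0.894). Without the 2 arrays farthest from the median these were 0.890, 0.770 and 0.252.

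Other CC and CX3C chemokines did not share one direction. Of 16 looked for, 12 passed the detection rule, each taken by its brightest probe. In the stabilized wound 6 were higher and 6 lower than with GFP (median -0.07), 2 of them at least 2-fold higher and 3 at least 2-fold lower. The macrophage inflammatory proteins Ccl3 and Ccl4 were 2.61-fold and 3.21-fold lower, opposite to the member chemokines. In the knockdown 0 of 12 passed (limma), while 3 were higher and 1 lower at an unadjusted p under 0.05. Of all probes 10.6% had such a p-value. Ccl5, which attracts T cells and also acts on Ccr1, gave 8.10 and 7.96 in controls but 9.37 and 9.34 in knockdown wounds. It differed by 1.33 ± 0.14 (SE; limma, adjusted p = 0.177). The lymphoid chemokine Ccl19 differed by 1.33 ± 0.27 and Ccl3 by -0.47 ± 0.17. Ccl17, another T cell attractant, was not well above background in controls and was at least 2.92-fold higher in knockdown wounds. It passed the detection rule only through the 2 knockdown arrays, so the count of 3 higher includes a gene selected by its high group.

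Of 11 other chemokine receptors and scavengers 6 passed the detection rule. The scavenger Ackr2, which removes inflammatory CC chemokines including Ccl2, read 7.12 with GFP and 8.43 with stabilized β-catenin (2.48-fold higher). Ccrl2, which binds chemerin, was 3.98-fold lower. Ccr6 had an unadjusted p under 0.05 in the knockdown, but its probe was not well above background on any tamoxifen array. Of 7 other colony stimulating factors and receptors 5 passed the rule. Il34, the keratinocyte-derived second ligand of Csf1r, gave 7.68 and 7.96 in controls and 8.31 and 8.66 in knockdown wounds, without overlap (0.66 ± 0.19, SE; limma, adjusted p = 0.337). Csf3r, the neutrophil growth factor receptor and also 1 of the neutrophil markers, was 3.99-fold lower in the stabilized wound. Among 13 inducers and inhibitors of chemokine genes that passed, Tnf was 6.74-fold and Il1b 2.56-fold lower in the stabilized wound. Il1a differed by -1.08 ± 0.28 (SE; limma, adjusted p = 0.285) in the knockdown. Over these 3 lists 0 genes passed in the knockdown (limma), with 2 higher and 1 lower at an unadjusted p under 0.05, against 10.6% of all probes.

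**Figure D3:**
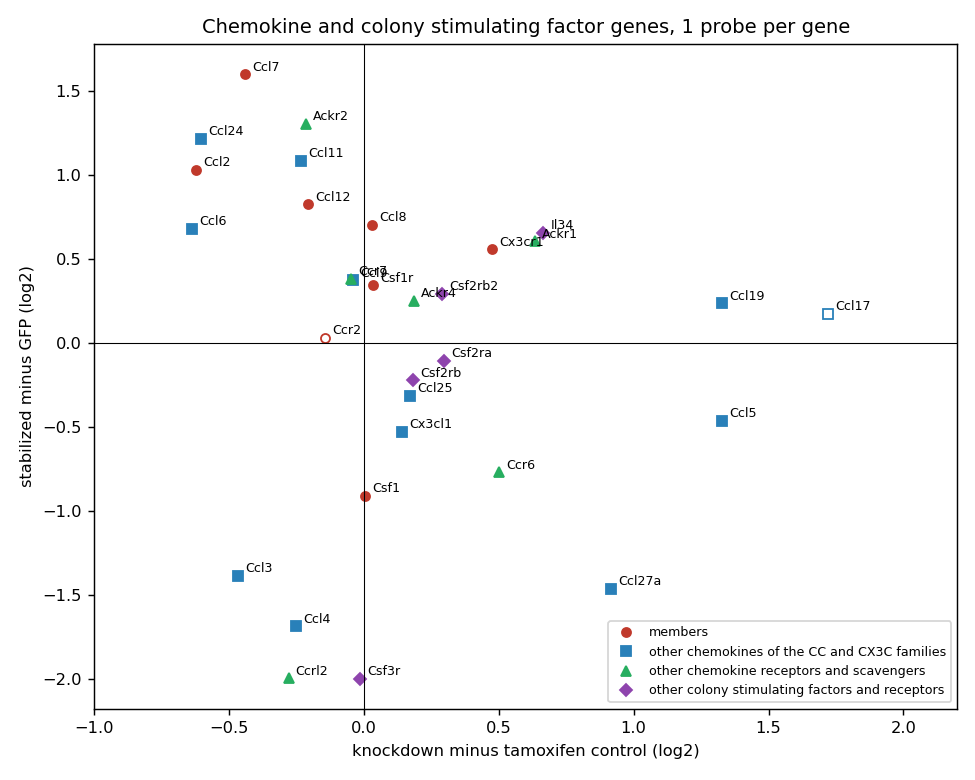
Difference between knockdown and tamoxifen control (log2, horizontal axis) against difference between stabilized and GFP wound (log2, vertical axis), 1 probe per gene, for the members and the other chemokine and colony stimulating factor genes. Open symbols were not detected on either adenovirus array. Ccl2, Ccl7 and Ccl12 lie at the upper left, while Ccl3 and Ccl4 lie at the lower left and Ccl5, Ccl17 and Ccl19 to the right.

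In a whole wound, fewer cells of a type and less RNA per cell cannot be told apart, so cell type markers are given beside the members. Of 18 monocyte and macrophage markers, 15 had a probe named for them and passed, and the rest were not analysed here. Their median difference was 0.49 between the adenovirus arrays (12 higher, 3 lower) and 0.11 in the knockdown (9 higher, 6 lower). Their summed linear signal, led by Lyz2, C1qb and Cd14, was 64760 with GFP and 76489 with stabilized β-catenin. It was 82776 and 68334 in controls, and 80829 and 73602 in knockdown wounds, so these groups overlapped. Between the adenovirus arrays the sum joins opposite moves. Lyz2 was 1.44-fold and C1qb 1.94-fold higher in the stabilized wound, and Cd14 was 3.08-fold lower. The members' own sum, led by Ccl8, Ccl7 and Ccl12, went from 15752 with GFP to 29033 with stabilized β-catenin. It was 20815 and 16491 in controls, and 16800 and 18939 in knockdown wounds.

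Neutrophil markers, of which 10 of 12 passed, had a median difference of -1.60 between the adenovirus arrays, with 7 at least 2-fold lower in the stabilized wound, and of 0.09 in the knockdown. Their sum, led by S100a8, S100a9 and Mmp9, was 135144 with GFP and 66972 to 91340 on the other arrays. Fibroblast markers were higher in the stabilized wound for 8 of 9 genes (median 0.49), endothelial markers for 6 of 7 (median 0.32), and keratinocyte markers for 2 of 8 (median -0.14). In the knockdown, fibroblast markers were lower for 5 of 9 (median -0.07), endothelial for 6 of 7 (median -0.17) and keratinocyte for 6 of 8 (median -0.31). All 6 lymphocyte markers that passed, of 11, were higher in the knockdown (median 1.07), with sums of 1762 and 1935 against 902 and 884 in controls. Between the adenovirus arrays 5 of the 6 were lower in the stabilized wound (median -0.48). Skeletal muscle genes, 10 of 10, were above control in the knockdown (median 1.39) and lower in the stabilized wound (median -1.79). The 4 of 9 dendritic and Langerhans cell markers that passed were higher in the knockdown (median 0.63), as were 6 of 7 mast cell markers (median 0.61). The 4 were Cd207, H2-Ab1, H2-Aa and Cd74. Itgax, Flt3, Zbtb46, Xcr1 and Epcam did not pass, so the median does not single out dendritic cells. In the stabilized wound 3 of the 4 (median 0.25) and 5 of the 7 mast cell markers (median 0.64) were higher than with GFP. The part of these cell types in the members' values was not tested.

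**Figure D4:**
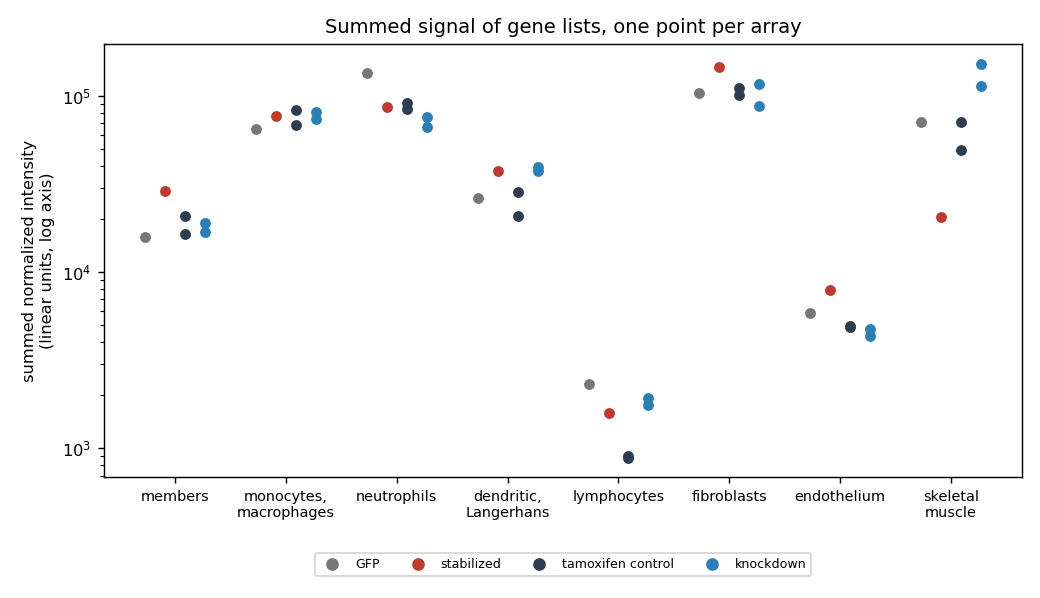
Summed normalized intensity (linear units on a log axis) of the members and of marker lists, one point per array and coloured by group. The members' sum is highest in the stabilized wound, the neutrophil sum is highest in the GFP wound, and the macrophage sums of all arrays lie between 64760 and 82776.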

How the data were processed

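RNA from whole wounds was hybridised to 6 Illumina bead arrays with 1 colour. Per the file headers, the table deposited by the authors gives each probe an average bead intensity, not normalized between arrays, and a detection p-value. A second deposited table holds log2 values, for which the submitters' processing notes name R 2.14 and limma. It ranked the probes of each array as the intensities did (Spearman correlation 1) and differed by at most 0.101 from the values computed here. Slide and scan day are not given in the sources used here, so no batch was tested. The platform annotation gives 1 gene for 34885 of 45281 probes, several for 18 and lists none for 10378, and 34807 were matched to RefSeq (GRCm38.p6) by Entrez number for current symbols.

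Background was corrected with neqc (limma 3.58.1, R 4.3.3), which uses the detection p-values, adds an offset of 16 that shrinks differences of dim probes, and normalizes by quantiles. Each probe was fitted with lmFit and eBayes over 4 group means. The spread was estimated from the tamoxifen arrays (2 residual and 3.22 prior degrees of freedom). Two-sided p-values were adjusted by Benjamini-Hochberg over 17410 probes. Fits were tested on simulated data. The members, lists and rules were chosen with earlier results of these data known. Named genes were the members, up to 5 genes of each related list (unadjusted p under 0.05 in the knockdown first, then 2-fold in the adenovirus arrays), the most abundant markers, and the 3 genes most like Ccl2, Ccr2 and Csf1r among those detected on 6 arrays with a range of at least 1. Ccl11 and Cx3cl1 are named outside this rule. Where a group was not above background, a fold was bounded by its lowest detectable signal and written as "at least". Alternatives covered background, offset, scaling, filter, probe choice, variance moderation, arrays left out and a replicate block. Replicate numbers name no shared source, so no block was used.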

Additional observations from a re-analysis of the deposited data

How the results depend on the processing

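The number of probes at least 2-fold apart between the adenovirus arrays, 1468, was 594 without background correction, 934 with an offset of 50, 3148 with median scaling, 796 for probes detected on all 6 arrays, 763 with 1 probe per gene and 3889 at 1.5-fold. The count of member probes, 3, became 8 with median scaling and 8 at 1.5-fold. It became 2 without background correction and 2 with an offset of 50, both by the loss of Ccl2, and 2 with 1 probe per gene. The knockdown called 0 probes with all arrays. Its count of member probes at an unadjusted p under 0.05, 0 with all arrays, was 1 (Ccl2) with trended and robust variances. The slope called 0 probes, but 179 with median scaling and 134 without the model term, with no member among either (lowest adjusted p of a member 0.206 and 0.0828). Its 4 member probes at an unadjusted p under 0.05 became 2 with 1 probe per gene and 0 to 5 with 1 array left out.

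Ccl2, Ccl7 and Ccl12 kept their direction in the knockdown, the adenovirus arrays and the slope under all alternatives run, although with 1 array left out the knockdown value of the brighter Ccl12 probe came as near to 0 as -0.0051. The slope changed sign for Cx3cr1 with median scaling (0.0261) and, without the model term, for Ccr2 (-0.19) and the brighter Csf1r probe (-0.0556). With 1 array left out, the knockdown difference ranged from -0.12 to 0.18 for Ccl8, -0.70 to 0.41 for Ccr2, -0.0349 to 0.0432 for Csf1, and -0.19 to 0.26 and -0.16 to 0.65 for the Csf1r probes. The slope ranged from -0.0291 to 0.37 for Ccl8, -0.22 to 0.41 for Ccr2 and -0.48 to 0.17 for Cx3cr1. It ranged from -0.0349 to 0.26 and from -0.25 to 0.46 for the Csf1r probes. The low ends for Ccl8, Cx3cr1 and both Csf1r probes are knockdown differences with the sign turned, from fits without an adenovirus array. The causes were not tested. Replicates 1 and 2 of knockdown and control share only a number (the differences between replicates correlated at r = 0.0916 across 17410 probes). With a replicate block the knockdown called 0 probes and 0 member probes had an unadjusted p under 0.05, and the slope had 3 such member probes. The Ccr2 probe is limited by its signal, close to background.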

Other observations

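Of the 15 monocyte and macrophage markers that passed, 4 had an unadjusted p under 0.05 in the knockdown (limma), against 10.6% of all probes. These 4 did not share one direction. They and Mrc1 were picked after their values were seen. Cd163, the haemoglobin scavenger receptor, gave 10.70 and 10.16 in controls but 8.72 and 9.73 in knockdown wounds (-1.20 ± 0.38, SE). It read 8.33 with GFP and 9.67 with stabilized β-catenin. Msr1, the class A scavenger receptor, gave 7.42 and 6.91 in controls and 6.44 and 6.35 in knockdown wounds (-0.77 ± 0.21, SE). Plac8, which inflammatory monocytes express, differed by -0.59 ± 0.20, and Aif1, a calcium-binding protein of macrophages, by 0.62 ± 0.20. None of the 4 passed over all probes (limma, adjusted p from 0.311 to 0.405). Between the adenovirus arrays, the mannose receptor Mrc1 was 2.34-fold higher in the stabilized wound, and Cd14, part of the receptor for bacterial lipopolysaccharide, was 3.08-fold lower.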
